A study of Homo sapiens with 12 samples.

Results

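The 9 genes described here encode complement regulators, the proteins that keep the complement cascade from running unchecked. They were taken by symbol from the 16389 genes of the deposited count table: SERPING1, CFI, C4BPA, C4BPB, VTN and CLU, whose products are secreted, and CD46, CD55 and CD59, whose products sit on the cell membrane. All 9 had a row, and all 9 passed the filter on low counts in every comparison, with between 343 and 37917 reads per library. The cells were HepG2, an established human liver cancer line, obtained at passage 9. LG cells were kept in medium with 5.5 mM glucose and HG cells for 48 h in medium brought to 20 mM D-glucose. LGV and HGV cells had the same media and then 1 mM valproic acid (VPA), an inhibitor of histone deacetylases, for 12 h. Each group had 3 libraries. The labels do not say that these came from separate cultures, so the p-values measure the spread between these libraries, which may be technical. The sources used here do not give the harvest time of LG and HG relative to the 12 h of VPA, so that VPA and longer culture cannot be told apart.

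Complement is a chain of plasma proteases that is started by C1, by mannose-binding lectin or spontaneously, meets at the cleavage of C3 and ends in the membrane attack complex. Regulators act at each stage. C1 inhibitor (SERPING1) blocks the starting proteases, C4b-binding protein and factor I (CFI) dismantle the C3 convertases together with the membrane proteins CD46 and CD55, and CD59, vitronectin (VTN) and clusterin (CLU) hold back the terminal complex. Hepatocytes make most of the plasma complement proteins, the secreted regulators among them, whereas the membrane regulators are made by most cell types.

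Total counts ran from 29798442 to 45572694 per library. The 10 hepatocyte markers were all listed, with ALB between 18950 and 29440 CPM (read counts relative to library size, scaled with TMM factors), and their summed level was 62174 to 66711 CPM in LG, 61528 to 69436 in HG, 46310 to 48127 in LGV and 55554 to 69920 in HGV. Of the leukocyte markers 4 of 6 were listed, summing to 912 to 1552 CPM over the 12 libraries, of which LYZ, a gene that is not particular to leukocytes, held 908 CPM or more in each. PTPRC and CD3E were not among the genes listed. Endothelial markers (2 of 4 listed) summed to 2.21 to 4.85 CPM, fibroblast or stellate markers (3 of 5 listed) to 43.7 to 78.0 CPM, and none of the 4 platelet or erythroid markers was listed. The cells were of a single line. Fewer cells with RNA of these markers and less of that RNA per cell cannot be told apart in bulk libraries. The part that the lower hepatocyte marker sum in LGV had in the results below was not tested.

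The promoter sequences of 4 members are shown because their genes answered differently to glucose or VPA, C4BPB and C4BPA although they are neighbours. Each is the 250 bases before the first transcribed base, on the gene's strand, from RefSeq on GRCh38.p14. The windows are chr1:207088610-207088859 (C4BPB, the most upstream of its 3 starts, plus strand), chr1:207103983-207104232 (C4BPA, plus strand), chr4:109802000-109802249 (CFI, minus strand) and chr1:207321428-207321677 (CD55, plus strand). Capitals mark a CCAAT box or a GC box (GGGCGG) on either strand. The windows of the other C4BPB starts, not shown, held a CCAAT box starting at -106 and at -150. Whether these motifs bear on the responses was not tested.
C4BPB: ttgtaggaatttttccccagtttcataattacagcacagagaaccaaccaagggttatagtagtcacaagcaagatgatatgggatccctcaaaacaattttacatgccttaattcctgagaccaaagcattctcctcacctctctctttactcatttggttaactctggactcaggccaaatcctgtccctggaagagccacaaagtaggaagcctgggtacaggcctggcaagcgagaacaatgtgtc
C4BPA: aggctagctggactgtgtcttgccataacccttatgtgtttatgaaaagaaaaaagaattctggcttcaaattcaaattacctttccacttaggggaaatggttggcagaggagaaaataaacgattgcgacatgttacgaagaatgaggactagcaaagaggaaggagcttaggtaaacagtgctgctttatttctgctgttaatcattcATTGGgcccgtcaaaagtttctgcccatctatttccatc
CFI: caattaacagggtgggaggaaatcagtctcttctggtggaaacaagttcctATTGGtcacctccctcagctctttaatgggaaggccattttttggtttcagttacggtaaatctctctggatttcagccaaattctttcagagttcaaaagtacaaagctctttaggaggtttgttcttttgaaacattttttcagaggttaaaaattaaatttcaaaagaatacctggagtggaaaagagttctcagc
CD55: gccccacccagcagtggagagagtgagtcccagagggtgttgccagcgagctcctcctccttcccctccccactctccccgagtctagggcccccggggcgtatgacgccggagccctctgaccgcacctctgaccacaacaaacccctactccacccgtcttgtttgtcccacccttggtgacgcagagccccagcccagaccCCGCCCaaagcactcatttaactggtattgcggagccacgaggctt

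Windows of 7 of the 9 genes were used. The source held none for SERPING1, and CLU was left out of the search, so nothing is said of its promoter. The search took in both strands, with any overlap counted, for the TATA box (TATAAA), the boxes CCAAT and GGGCGG, the E box (CACGTG), the GAS element (TTCNNNGAA, where N is any base), the ISRE core and the ER stress element. The letters CCAAT were in the windows of C4BPA, CFI and VTN and in at least 1 window of C4BPB, CD46 and CD59, against 32.0% of the 35116 promoter windows in the table. GGGCGG was in windows of CD55, CD46 and CD59 and in no window of C4BPB, C4BPA, CFI or VTN, against 42.6% of all windows. TTCNNNGAA was in the window of VTN and in 1 or more windows of C4BPB and CD59, against 6.57% of all windows. These shares are per window. C4BPB, CD46 and CD59 had several windows each, some of them overlapping, so a count by gene cannot be set directly against them. The TATA box, the E box, the ISRE core and the ER stress element, held by 10.7%, 6.34%, 3.02% and 0.074% of all windows, had no match in any of the 13 windows. The G and C content was 38.0% for CFI, 40.4% for C4BPA, 44.4% for the C4BPB window above and 54.8% for VTN, and it was 64.0% for CD55 and 64.8% and 67.6% for CD46 and 62.0%, 70.4%, 43.6% and 52.0% for the 4 windows of CD59, beside a median of 58.0% over all windows.

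Of the 9 genes, 4 lie in the cluster of complement regulators on the long arm of chromosome 1, within 707 kb on the plus strand of GRCh37: C4BPB from 207262205 to 207273338, C4BPA from 207277578 to 207318317, CD55 from 207494864 to 207560149 and CD46 from 207925382 to 207968858. The neighbours C4BPB and C4BPA, which encode the beta and alpha chains of C4b-binding protein, are 4.24 kb apart. CR2, CR1 and CR1L lie between CD55 and CD46 and are not analysed here. SERPING1 is on chromosome 11 from 57364860 to 57386644 on the plus strand. CFI (chromosome 4, 110652164 to 110723306), CD59 (chromosome 11, 33724556 to 33758025), VTN (chromosome 17, 26694305 to 26700110) and CLU (chromosome 8, 27454434 to 27472217) are on the minus strand. Exons of CD46 share 797 bases with MIR29B2CHG, a noncoding gene on the other strand that is also in the table, and no source used here gives the strand setting of the read counting. Exons of CFI, CD59 and VTN share 1562, 629 and 329 bases with gene models on the same strand that are not among the genes listed.

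Levels between genes were compared as CPM per kb of the reference transcript (MANE Select). In LG cells CLU was the highest with 235 ± 17.8 CPM per kb (SD, n = 3), followed by VTN with 153 ± 12.5 and C4BPB with 106 ± 2.87. CFI had 74.1 ± 24.3, CD46 53.4 ± 3.72, C4BPA 28.3 ± 0.449 and CD59 16.0 ± 1.71 CPM per kb, and the libraries of CD55 lay between 28.4 and 38.7. SERPING1 was the lowest with 7.95 ± 0.817 CPM per kb. In LG the ranges of neighbouring genes overlapped for CFI with CD46 and for CD55 with C4BPA, and for no other neighbours in this order. In HGV cells SERPING1 was the fifth with 35.2 ± 9.58 CPM per kb and C4BPB the sixth with 27.6 ± 0.753, although the ranges of SERPING1, C4BPB, C4BPA and CD55 overlapped from each to the next. The order depends on the length taken: with all annotated exons merged, VTN stood above CLU in LG, HG and LGV, and C4BPA went from the seventh to the third place in LGV. In HGV, SERPING1 then took the seventh place and C4BPB the eighth.

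**Figure D1:**
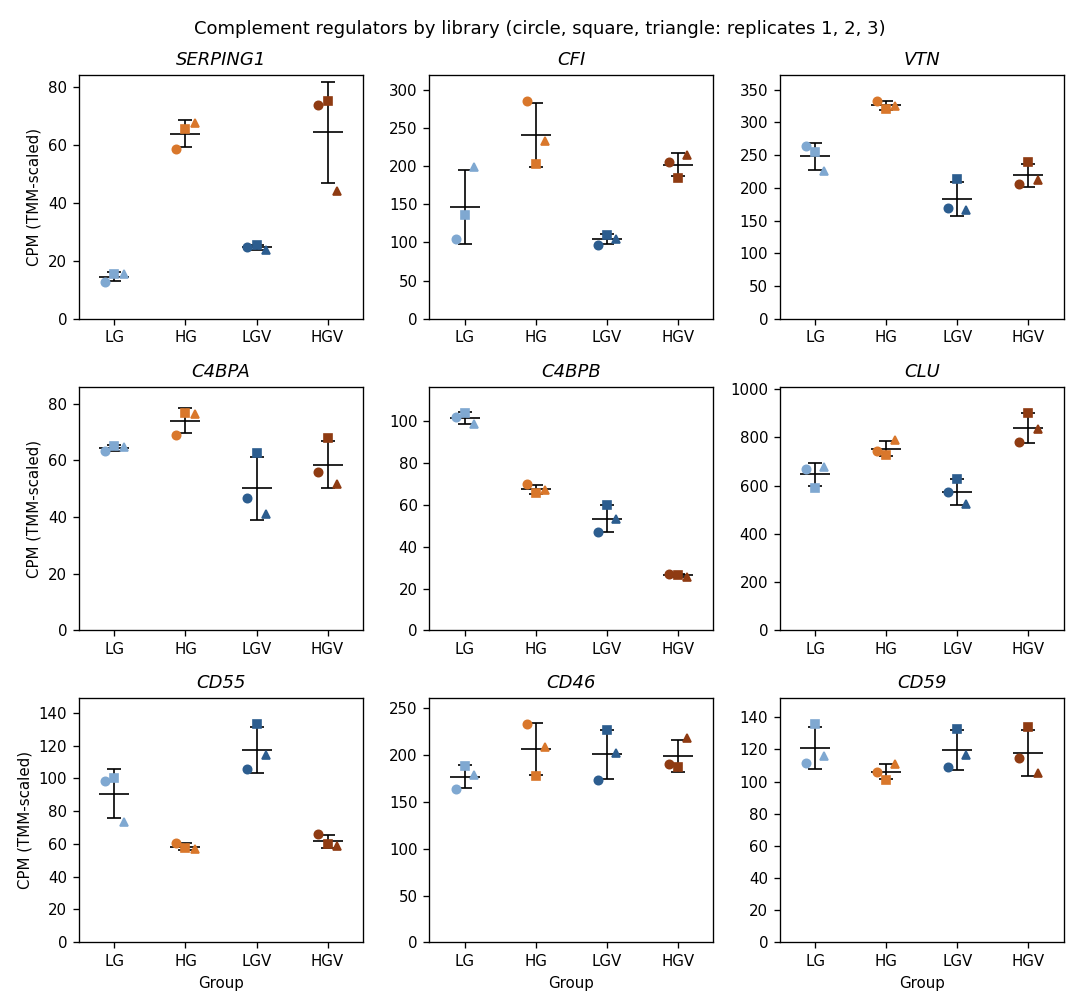
TMM-scaled CPM of the 9 complement regulators (vertical axes, from 0) in each library of LG, HG, LGV and HGV. Symbols are replicates 1 to 3 and bars are the mean ± SD (n = 3). SERPING1 lay between 12.8 and 15.5 CPM in LG and between 58.5 and 67.6 in HG, and C4BPB between 25.7 and 27.1 CPM in HGV.

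The first question was how the regulators differed between high and low glucose. Between HG and LG, 3 of the 9 regulators rose (SERPING1, CFI and VTN), 2 fell (C4BPB and CD55) and 4 did not pass the test (C4BPA, CD46, CD59 and CLU). Each gene was tested by the quasi-likelihood method of edgeR and called at an FDR (Benjamini-Hochberg over all genes tested) of 0.05 or less. Over the 15452 genes tested, 24.7% were called, 12.0% higher and 12.7% lower in HG (1854 and 1959 genes, or 2172 and 1297 with library size in place of TMM factors). The median log2 fold change was 0.24 over the 9 genes and 0.01 over all genes, and the median size, without sign, was 0.42 and 0.30. The CPM ranges of HG and LG did not overlap for 8 of the 9 regulators, all but CD46, against 41.2% of all genes.

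SERPING1 encodes C1 inhibitor, a serpin that inactivates C1r, C1s and the MASP proteases. Its 3 LG libraries had 12.8, 15.5 and 15.3 CPM and its HG libraries 58.5, 65.5 and 67.6 CPM. Every HG library was thus well above every LG library. The log2 fold change was 2.15 (SE 0.14, FDR 1.26e-08 with edgeR), a 4.45-fold rise, and 99.5% of the genes tested changed less in either direction. CFI encodes factor I, the protease that cuts C3b and C4b. It had 105, 136 and 199 CPM in LG and 285, 203 and 233 CPM in HG, so that LG replicate 3 came close to HG replicate 2. CFI rose 1.66-fold (log2 fold change 0.73, SE 0.18, FDR 0.00627 with edgeR). This call was lost without HG replicate 1 (FDR 0.0653) and without LG replicate 1 (FDR 0.0566). VTN, whose product vitronectin keeps the forming terminal complex in solution, had 265, 255 and 226 CPM in LG and 333, 320 and 326 CPM in HG. The HG libraries lay close together above all LG libraries. VTN rose 1.33-fold (log2 fold change 0.42, SE 0.12, FDR 0.0142 with edgeR), and the FDR was 0.0537 without HG replicate 2.

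C4BPB encodes the beta chain of C4b-binding protein, which carries the anticoagulant protein S. It had 102, 104 and 98.6 CPM in LG and 69.8, 65.5 and 67.1 CPM in HG. The groups were tight and apart, and C4BPB fell by 0.57 on the log2 scale (SE 0.12, FDR 0.00184 with edgeR). CD55, decay-accelerating factor, which splits the C3 convertases, had 98.2, 100 and 73.7 CPM in LG and 60.7, 57.3 and 57.0 CPM in HG. LG replicate 3 was the lowest of its group and still above the HG libraries. CD55 fell by 0.61 on the log2 scale (SE 0.13, FDR 0.00277 with edgeR). Both calls held at every alternative tried, with FDR up to 0.0252 for C4BPB and 0.0337 for CD55 when a replicate was left out.

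The other 4 regulators differed by less. C4BPA, the alpha chain that binds C4b, had 63.2 to 65.1 CPM in LG and 69.1 to 76.8 CPM in HG, and its log2 fold change of 0.23 had an FDR of 0.179 with edgeR. CLU, or clusterin, a chaperone that also binds the terminal complex, had 590 to 679 CPM in LG and 727 to 787 CPM in HG, with 0.24 and an FDR of 0.135. With library size in place of TMM factors, the FDR of CLU was 0.0344. CD46, a membrane cofactor of factor I, had 164 to 188 CPM in LG and 177 to 233 CPM in HG (log2 fold change 0.24, FDR 0.164 with edgeR). CD59, which stops the membrane attack complex from closing, had 111 to 135 CPM in LG and 101 to 111 CPM in HG (log2 fold change -0.17, FDR 0.337 with edgeR).

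Among VPA-treated cells, the comparison of HGV with LGV asked the same question with none of the libraries used above. SERPING1, CFI and CLU rose, C4BPB and CD55 fell, and VTN, C4BPA, CD46 and CD59 did not pass the test, which makes 5 of 9 called beside 40.7% of 16208 genes, 21.2% higher and 19.5% lower. The median log2 fold change was 0.20 over the regulators and 0.01 over all genes. SERPING1 had 24.6, 25.6 and 23.8 CPM in LGV and 73.7, 75.2 and 44.1 CPM in HGV. HGV replicate 3 stood well below the other two libraries but above all LGV libraries, and the log2 fold change was 1.37 (SE 0.16, FDR 7.95e-06 with edgeR). CFI had 97.2, 110 and 105 CPM in LGV and 205, 185 and 215 CPM in HGV. The lowest HGV library stood above the highest LGV library, and the log2 fold change was 0.93 (SE 0.12, FDR 1.55e-05 with edgeR). C4BPB had 47.2, 59.9 and 53.2 CPM in LGV and 27.1, 26.6 and 25.7 CPM in HGV, a fall by 1.03 on the log2 scale (FDR 7.98e-06 with edgeR). CD55 had 105, 133 and 114 CPM in LGV and 66.2, 60.1 and 58.5 CPM in HGV, a fall by 0.95 (FDR 1.66e-05 with edgeR). For SERPING1, CFI, C4BPB and CD55 the HGV and LGV libraries did not overlap. CLU rose from 522 to 628 CPM in LGV to 778 to 902 CPM in HGV, by 0.53 on the log2 scale (FDR 0.00446 with edgeR), and its FDR was 0.0523 without LGV replicate 3. With CLU, 5 of the 9 genes had ranges that did not overlap, against 51.4% of all genes. VTN, called in untreated cells, had 167 to 213 CPM in LGV and 206 to 240 CPM in HGV, overlapping ranges with a log2 fold change of 0.25 (FDR 0.143 with edgeR; 0.0227 with library size in place of TMM factors).

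**Figure D2:**
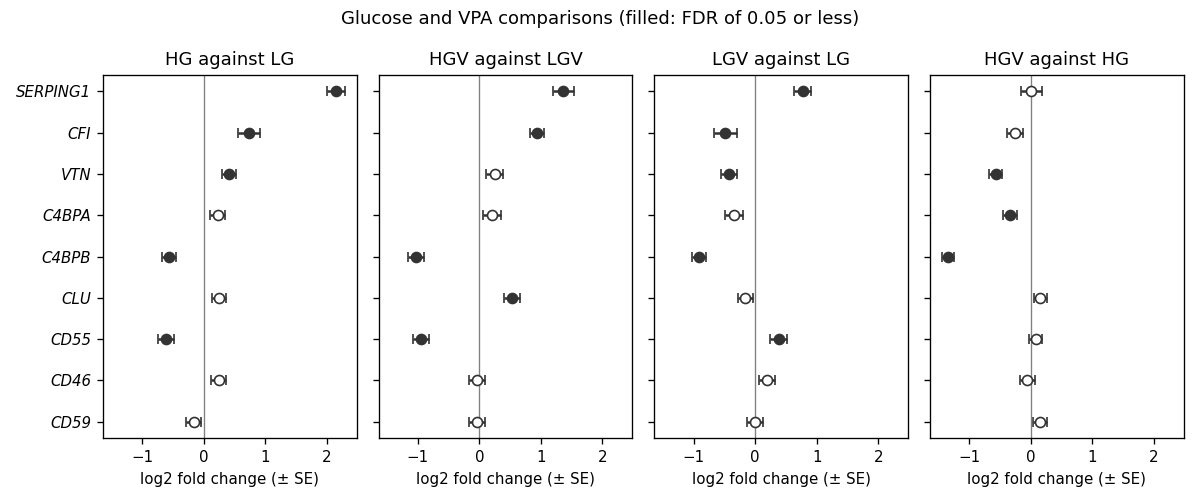
Log2 fold changes (horizontal axes, ± SE, n = 3 per group) of the 9 regulators in the comparisons of high with low glucose and of VPA with no VPA. Filled points had an FDR of 0.05 or less: SERPING1, CFI, C4BPB and CD55 are filled on the same side in both glucose comparisons, and C4BPB and VTN in both VPA comparisons.

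The second question was how VPA changed the regulators in high glucose. Between HGV and HG, 3 of the 9 fell (C4BPB, VTN and C4BPA), none rose and 6 did not pass the test, beside 46.1% of the 16188 genes tested, 25.8% higher and 20.2% lower (4184 and 3272 genes, or 5182 and 2424 with library size in place of TMM factors). With no adjustment for the number of genes, p was under 0.05 for no regulator that was higher with VPA, both with edgeR and with DESeq2. The median log2 fold change was -0.05 over the 9 genes and 0.02 over all genes, and its median size was 0.15 and 0.39. The groups did not overlap for the 3 genes that fell, against 54.6% of all genes.

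C4BPB had the largest fall among the regulators, from 69.8, 65.5 and 67.1 CPM in HG to 27.1, 26.6 and 25.7 CPM in HGV. Its log2 fold change was -1.35 (SE 0.10, FDR 4.67e-07 with edgeR), a 2.55-fold lower level, and it ran from -1.37 to -1.33 when a replicate was left out. VTN went from 333, 320 and 326 CPM to 206, 240 and 212 CPM and fell by 0.57 on the log2 scale (SE 0.10, FDR 0.00049 with edgeR). C4BPA went from 69.1, 76.8 and 76.2 CPM to 55.9, 67.9 and 51.7 CPM, with HGV replicate 2 just below the lowest HG library. It fell by 0.34 (SE 0.12, FDR 0.0321 with edgeR). That call was lost in 4 of the 6 sets that left out 1 library: the FDR was 0.099 without HG replicate 2, 0.107 without HG replicate 3, 0.103 without HGV replicate 1 and 0.13 without HGV replicate 3. It was also lost with library size in place of TMM factors (FDR 0.122) and in 1 fit of the 12 libraries (FDR 0.0522).

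SERPING1, the regulator with the largest rise in high glucose, had a log2 fold change of 0.01 between HGV and HG (SE 0.17, FDR 0.969 with edgeR). The mean was 63.9 ± 4.73 CPM in HG and 64.3 ± 17.5 CPM in HGV (SD, n = 3), and the HGV libraries lay on both sides of the HG range. CFI had 240.4 ± 41.8 CPM in HG and 202 ± 15.1 CPM in HGV, a log2 fold change of -0.25 (FDR 0.125 with edgeR). Without HG replicate 2 the FDR of CFI was 0.0499. CD55 had 57.0 to 60.7 CPM in HG and 58.5 to 66.2 CPM in HGV (log2 fold change 0.08, FDR 0.555 with edgeR). CLU, CD59 and CD46 had log2 fold changes of 0.15, 0.15 and -0.05 with overlapping groups. None of the 3 membrane regulators (CD46, CD55 and CD59) passed the test, and 0 of 3 had an unadjusted p under 0.05 with edgeR or DESeq2. With library size in place of TMM factors, CLU (0.27, FDR 0.0308 with edgeR) and CD59 (0.27, FDR 0.0433) passed the test.

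In low glucose, VPA gave 5 calls among the 9 regulators, 2 higher (SERPING1 and CD55) and 3 lower (C4BPB, CFI and VTN), beside 41.6% of 15944 genes, 21.7% higher and 19.9% lower (3461 and 3177 genes, or 4500 and 1956 with library size in place of TMM factors). The median log2 fold change was -0.16 over the regulators and -0.01 over all genes. SERPING1 rose from 12.8, 15.5 and 15.3 CPM in LG to 24.6, 25.6 and 23.8 CPM in LGV. These ranges were apart, with a 1.71-fold rise (log2 fold change 0.77, SE 0.14, FDR 0.000423 with edgeR). C4BPB went from 102, 104 and 98.6 CPM to 47.2, 59.9 and 53.2 CPM, a fall by 0.91 on the log2 scale (SE 0.12, FDR 2.67e-05 with edgeR). SERPING1 and C4BPB kept their calls at every alternative tried.

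The other 3 calls in low glucose were lost in some of the refits that left out 1 library, which also have fewer libraries to test with. Of the 5 regulators called, 2 were left without LGV replicate 3, and 3 without LG replicate 1, LG replicate 3 or LGV replicate 1. CD55 rose from 98.2, 100 and 73.7 CPM to 105, 133 and 114 CPM (log2 fold change 0.39, FDR 0.0353 with edgeR). Its log2 fold change was 0.44 (FDR 0.0585) without LG replicate 1, 0.27 (FDR 0.113) without LG replicate 3, 0.29 (FDR 0.161) without LGV replicate 2 and 0.42 (FDR 0.0663) without LGV replicate 3. VTN fell by 0.43 on the log2 scale, from 226 to 265 CPM in LG to 167 to 213 CPM in LGV (FDR 0.0152 with edgeR). Its log2 fold change was -0.39 (FDR 0.0652) without LG replicate 1, -0.37 (FDR 0.0545) without LGV replicate 1 and -0.35 (FDR 0.101) without LGV replicate 3. CFI fell by 0.49 (FDR 0.0466 with edgeR) although LG replicate 1, with 105 CPM, lay inside the LGV range of 97.2 to 110 CPM. Without LG replicate 3, its highest library, the log2 fold change of CFI was -0.18 (FDR 0.314), and it was -0.43 (FDR 0.122), -0.53 (FDR 0.0663) and -0.47 (FDR 0.115) without LGV replicates 1, 2 and 3 in turn, and its FDR was 0.203 with library size in place of TMM factors. C4BPA, with 63.2 to 65.1 CPM in LG and 41.2 to 62.5 CPM in LGV, had a log2 fold change of -0.35 and an FDR of 0.0645 with edgeR, and it passed without LGV replicate 2 (FDR 0.00775). CD46, CD59 and CLU had log2 fold changes of 0.19, 0.00 and -0.16 and did not pass. The groups did not overlap for 5 of the 9 regulators, SERPING1, C4BPB, C4BPA, CD55 and VTN, against 50.5% of all genes.

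An interaction term fitted to the 12 libraries tested whether the VPA response depended on glucose. None of the 9 regulators passed this test with edgeR, beside 0.0427% of 16389 genes, 0.0244% with a positive and 0.0183% with a negative term. With no adjustment, p was under 0.05 for 2 of the 9, SERPING1 and C4BPB, and DESeq2 gave the same counts of 0 and 2. For SERPING1 the difference between glucose levels was 2.15 on the log2 scale in untreated and 1.37 in treated cells, an interaction of -0.75 (SE 0.22, FDR 0.178 with edgeR). For C4BPB the interaction was -0.42 (SE 0.16, FDR 0.283 with edgeR). A gene called in 1 of the comparisons above and not in another is therefore not shown to differ between them.

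High glucose and VPA together were set against low glucose alone. Between HGV and LG, 5 of 9 regulators were called, beside 52.2% of 16266 genes, 27.9% higher and 24.3% lower (4543 and 3948 genes, or 6004 and 2353 with library size in place of TMM factors). The median log2 fold change was -0.03 over the regulators and 0.02 over all genes. C4BPB went from 102 ± 2.75 CPM in LG to 26.5 ± 0.723 CPM in HGV (SD, n = 3), which was a 3.81-fold lower level (log2 fold change -1.93, SE 0.14, FDR 8.86e-11 with edgeR). SERPING1 was 4.44-fold higher (log2 fold change 2.15, FDR 1.76e-09) and CD55 fell by 0.55 (FDR 0.00294), a call that library size in place of TMM factors took away (FDR 0.0649). CLU rose by 0.39 (FDR 0.0275 with edgeR). Its FDR was 0.058 without HGV replicate 2, 0.0706 without HGV replicate 3, 0.0671 without LG replicate 1 and 0.111 without LG replicate 2. CFI rose by 0.46 (FDR 0.0315 with edgeR), and its FDR was 0.0692 without HGV replicate 3, 0.245 without LG replicate 1 and 0.0979 without LG replicate 2. Without HGV replicate 3, LG replicate 1 or LG replicate 2, 3 regulators were called. VTN, with 248 ± 20.4 CPM in LG and 219 ± 17.9 CPM in HGV, C4BPA, CD46 and CD59 did not pass. The groups did not overlap for SERPING1, C4BPB, CD55 and CLU, against 58.6% of all genes.

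**Figure D3:**
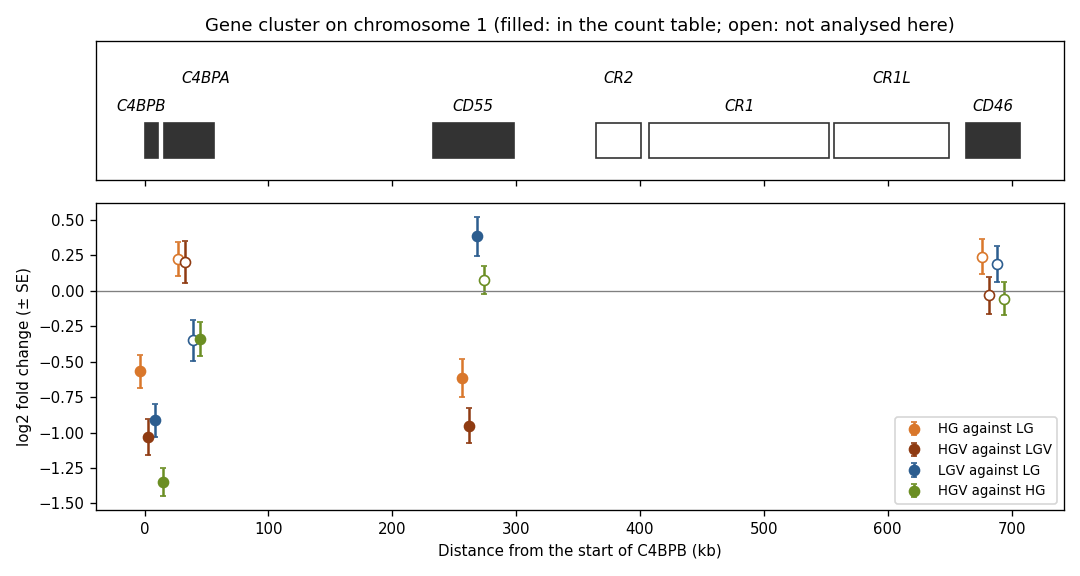
Upper panel: the gene cluster on chromosome 1, drawn to scale as distance in kb from the start of C4BPB. Lower panel: log2 fold changes (± SE) of its 4 members in 4 comparisons, set side by side at each gene and filled where the FDR was 0.05 or less. C4BPB is below 0 in all 4. CD55 is below 0 in the comparisons of high with low glucose and above 0 in those of VPA with no VPA.

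The alpha and beta chains of C4b-binding protein come from neighbouring genes, and their ratio within a library needs no scaling between libraries. The log2 ratio of C4BPA to C4BPB counts per kb was -1.94, -1.92 and -1.85 in LG, -1.26, -1.01 and -1.06 in HG, -1.25, -1.18 and -1.61 in LGV and -0.20, 0.11 and -0.23 in HGV. It was lowest in LG and highest in HGV, and the HG and LGV libraries overlapped between them. High glucose moved the ratio by 0.79 without and 1.24 with VPA, a mean of 1.02, and it was higher in 18 of 18 pairs of libraries (two-sided exact permutation test within VPA levels, p = 0.005, adjusted p = 0.0075 over 6 tests). VPA moved it by 0.55 in low and 1.00 in high glucose, a mean of 0.78, again in 18 of 18 pairs (two-sided exact permutation test within glucose levels, p = 0.005, adjusted p = 0.0075). A p of 0.005 is the smallest that these 400 arrangements can give. The ratios here and in the next paragraph use the same counts as the fold changes above. Their p-values are therefore not independent of those calls. Merged exon lengths would add 1.62 to every value of the ratio and leave the differences as they are.

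C1 inhibitor was set beside the proteases it inactivates in the same way. The log2 ratio of SERPING1 to C1S counts per kb was 1.36, 1.38 and 1.10 in LG and 2.00, 2.19 and 2.11 in HG, and 2.17, 1.67 and 1.73 in LGV and 2.57, 2.44 and 2.04 in HGV. High glucose raised it by a mean of 0.66 (17 of 18 pairs, two-sided exact permutation test, p = 0.01, adjusted p = 0.012) and VPA by 0.42 (16 of 18 pairs, two-sided exact permutation test, p = 0.015, adjusted p = 0.015). The VPA difference was 0.58 in low and 0.25 in high glucose, where the HG and HGV libraries overlapped, and with the replicate number as a block its adjusted p was 0.0625 by exact permutation. C1S itself was called higher in HG than in LG, with 8.84 ± 1.54 CPM in LG and 21.8 ± 1.01 CPM in HG (SD, n = 3), so that SERPING1 rose by more than C1S. The ratio of SERPING1 to C1R moved by 0.78 with high glucose (18 of 18 pairs) and by -0.54 with VPA (0 of 18 pairs), each with p = 0.005 and an adjusted p of 0.0075 by the two-sided exact permutation test. C1R had few reads, with a mean of 1.80 CPM in LG, 4.40 in HG, 4.24 in LGV and 6.49 in HGV, and the annotation used gives no MANE Select transcript for it, so its ratio is given as differences alone.

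**Figure D4:**
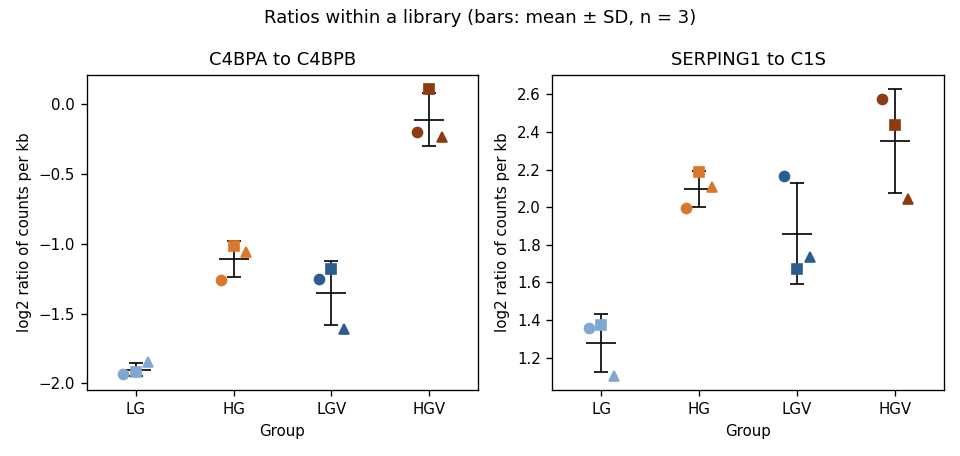
Log2 ratios of counts per kb within each library (vertical axes) for C4BPA to C4BPB and SERPING1 to C1S in the 4 groups. Symbols are replicates 1 to 3 and bars the mean ± SD (n = 3). The C4BPA to C4BPB ratio lies between -1.94 and -1.85 in LG and between -0.23 and 0.11 in HGV.

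The activation components give the rest of the pathway. Of 27 listed components, 18 were in the table and tested. Between HG and LG, 12 rose and 2 fell, beside 12.0% of all genes higher and 12.7% lower. The median log2 fold change of the components was 0.83, beside 0.01 over all genes. The components and the regulators were not tested against each other. The largest rises were those of C8B (1.42), a chain of the terminal complex, MBL2 (1.33), mannose-binding lectin, and C1S (1.32), and COLEC11 (-0.60) and MASP1 (-0.50) were lower. Between HGV and HG, 10 components fell and 2 rose, beside 20.2% of all genes lower and 25.8% higher, with a median of -0.54 beside 0.02 over all genes. The largest falls were those of MBL2 (-1.71), MASP2 (-1.48), the lectin pathway protease, and C8A (-1.01), and CFD (1.32), factor D, and C1R (0.56) rose. MBL2 had few reads, with 3.19 ± 2.26 CPM in LG, 8.03 ± 0.716 in HG and 2.47 ± 0.288 in HGV (SD, n = 3). CFD was also low, with 3.32 ± 0.105 CPM in HG and 8.32 ± 1.31 in HGV. Between LGV and LG 10 components fell and 2 rose, beside 21.7% of all genes higher and 19.9% lower, and between HGV and LGV 13 rose and 2 fell, beside 21.2% and 19.5%. Each of these 4 comparisons shares libraries with 2 of the others, so their signs are not independent. No component passed the interaction test with edgeR or DESeq2, and 1 of 18 had an unadjusted p under 0.05 with edgeR.

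**Figure D5:**
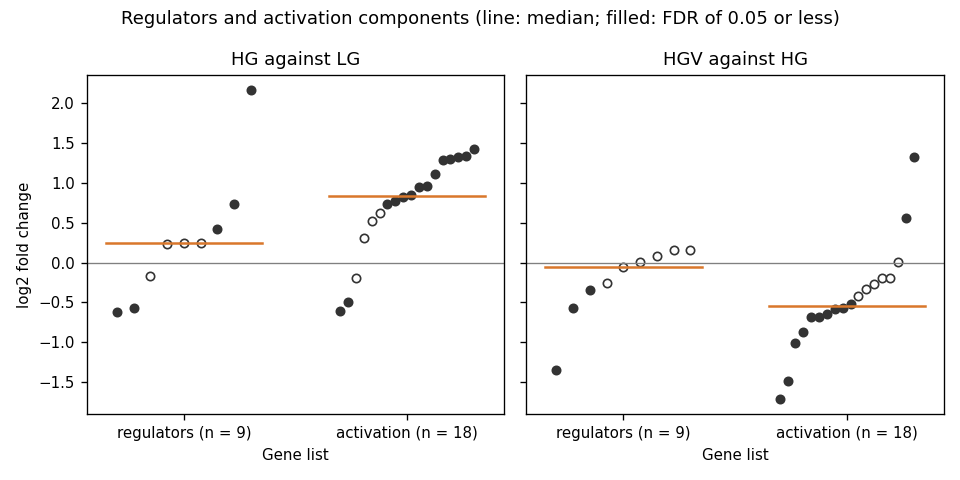
Log2 fold changes (vertical axis) of the 9 regulators and the 18 activation components between HG and LG and between HGV and HG. Each point is a gene, filled where the FDR was 0.05 or less, and lines are medians: 0.24 and 0.83 in the first comparison and -0.05 and -0.54 in the second.

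Of 19 other regulators, receptors and cluster genes, 6 were in the table: CPN1, CPN2, PROS1, C5AR1, ITGB2 and SUSD4. Between HG and LG 5 were tested. Of these 3 were higher and 0 lower, beside 12.0% of all genes higher and 12.7% lower. They were C5AR1, the receptor of C5a (log2 fold change 0.68), ITGB2 (0.47) and PROS1 (0.43). The groups did not overlap for 2 of the 5, against 41.2% of all genes. PROS1 encodes protein S, the partner of the C4BPB product. It rose from 50.1 ± 11.0 CPM in LG to 67.0 ± 9.37 CPM in HG (SD, n = 3, FDR 0.0473 with edgeR), whereas C4BPB fell. This FDR is close to the threshold, and refits of PROS1 without single libraries are not given here. PROS1 and C4BPB were not tested against each other. Between HGV and HG, 2 of the 6 were lower and 1 higher, beside 20.2% of all genes lower and 25.8% higher. CPN2, a subunit of the carboxypeptidase that trims C3a and C5a, fell by 1.47 on the log2 scale. It went from 68.3 ± 1.90 to 24.7 ± 1.66 CPM (SD, n = 3), and PROS1 fell by 0.35. SUSD4 was called higher, from a mean of 0.0504 CPM in HG to 1.39 CPM in HGV, levels too low for a fold change. Between HGV and LGV, C5AR1 had a log2 fold change of -0.31 (FDR 0.096 with edgeR), ITGB2 0.41 and PROS1 0.29. The interaction of C5AR1 was -0.94 (FDR 0.14 with edgeR). None of the 6 passed the interaction test with edgeR, beside 0.0427% of all genes. With DESeq2, 1 of the 6 passed, beside 162 of 16389 genes.

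The likeness of other genes to each regulator was taken as Pearson's r of log2(CPM + 1) over the 12 libraries, among 9019 genes with a mean of at least 10 CPM. It is a description, since the libraries share groups and depth. C4BPB was most like EIF4G2 (r = 0.99), a translation initiation factor, and ATF5 (0.99), a stress-responsive transcription factor. ATF5 had a mean of 57.9 CPM in LG, 31.2 in HG, 19.0 in LGV and 6.50 in HGV, the order that C4BPB also had. CD55 was most like ATF6 (0.99), a sensor of unfolded proteins in the endoplasmic reticulum, and CNNM2 (0.99). ATF6 had a mean of 131 CPM in LG, 71.4 in HG, 170 in LGV and 83.1 in HGV. SERPING1 was most like FADS1 (0.98) and AOX1 (0.96), and CFI was most like FGB (0.95), a fibrinogen chain, and KBTBD6 (0.95). C2, a complement protease, was among the closest genes of both VTN (0.97) and C4BPA (0.93), beside ITIH3 for VTN (0.97) and PROSC for C4BPA (0.94). CLU was most like FN3KRP (0.97) and LSM4 (0.95), CD59 like ILKAP (0.94) and TIMM23 (0.93), and CD46, the least variable in its group means after CD59, like THUMPD2 (0.80) and CKAP2 (0.80).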

How the data were processed

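Libraries of polyadenylated RNA gave single-end reads. Per the study's methods, the authors trimmed the reads, aligned them with STAR to GRCh37 with Ensembl annotation and counted them per gene with featureCounts. The authors deposited these counts as they were, not normalised, for genes averaging at least 10 reads per sample. Whether the counting used strand is not stated. Library totals ran from 29798442 to 45572694, and TMM factors from 0.879 to 1.095.

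Fold changes came from edgeR 4.0.16 under R 4.3.3 (TMM, dispersion from the libraries compared, quasi-likelihood F test) for genes with a mean of at least 10 counts. The standard error is the log2 fold change over the square root of F. Alternatives were DESeq2's size factors, library size alone, the DESeq2 1.42.0 Wald test, no filter, replicate number as a block, 1 fit of the 12 libraries and leaving out each replicate. The test was also run on simulated data. Ratios were tested in Python 3.11.15 (numpy 2.4.6, pandas 2.3.3) by exact permutation, and plots drawn with matplotlib 3.10.9. Positions and lengths came from GENCODE on GRCh37, matched by identifier, and promoters from RefSeq.

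The members and lists were chosen with earlier results of these data known. Named are all 9 members, up to 3 called genes in each direction of the other complement lists, the genes of the ratios and the 2 closest genes of each member.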

Additional observations from a re-analysis of the deposited data

How the results depend on the processing

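Over the 9 regulators and 6 comparisons, leaving out 1 library kept direction and call in 330 of the refits, lost the call in 26, gained one in 2 and turned the sign in 20. The other alternatives kept both in 290, lost the call in 4, gained one in 8 and turned the sign in 13. No turned sign belonged to a gene that was called in that comparison. Scaling by library size moved the median log2 fold change of all genes from 0.01 to 0.11 in HG against LG, 0.02 to 0.15 in HGV against HG, -0.01 to 0.16 in LGV against LG, 0.01 to 0.10 in HGV against LGV and 0.02 to 0.25 in HGV against LG. The values of the regulators under it, before any such shift is taken off, turned to 0.0692 for CD46 in HGV against HG, 0.15 for CD59 in LGV against LG, 0.0629 for CD46 and 0.0508 for CD59 in HGV against LGV, and 0.0991 for C4BPA, 0.204 for CD59 and 0.0617 for VTN in HGV against LG. CD46 passed the test under it in LGV against LG (0.35) and HGV against LG (0.41). The interaction of C4BPA turned to -0.0263 under it, -0.0092 with the size factors of DESeq2 and -0.0095 with the DESeq2 test. SERPING1 in HGV against HG turned to -0.0265 and -0.0266 with these last 2 settings.

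Leaving out 1 library gave log2 fold changes from -0.11 to 0.22 for SERPING1 and -0.154 to 0.0195 for CD46 in HGV against HG, -0.0879 to 0.0815 for CD59 in LGV against LG, -0.125 to 0.064 for CD46 and -0.135 to 0.0448 for CD59 in HGV against LGV, and -0.131 to 0.0626 for CD59 in HGV against LG. The interaction ran from -0.045 to 0.407 for CFI and from -0.14 to 0.18 for C4BPA. The number of regulators called ran from 2 to 5 in LGV against LG and from 3 to 5 in HGV against LG, and it stayed within 1 of the value above in the other comparisons. Over all genes, the 3813 calls of HG against LG became 2076 without HG replicate 3 and 1933 without LG replicate 1. The 7 interaction calls became 162 with DESeq2, 13 with the replicate block, 1 with library size, and 1 to 217 without 1 library. The cause was not tested.

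Whether the replicate numbers pair the libraries was not settled. Deviations of same-numbered libraries from their group means correlated across genes with r from -0.295 to 0.414, over 0.1 in 5 of 15 pairs. For libraries of unlike number r ran from -0.539 to 0.505. Calls over all genes rose under a replicate block from 7456 to 8229 in HGV against HG. They rose from 6638 to 6971 in LGV against LG and from 6604 to 7308 in HGV against LGV. They fell from 3813 to 3351 in HG against LG and from 8491 to 8200 in HGV against LG. With the replicate number as a block, SERPING1 in HGV against HG was -0.0251, C4BPA in LGV against LG was called (FDR 0.0262; 0.0422 in 1 fit of the 12 libraries), and the regulators called numbered 6 in LGV against LG, 3 in HGV against HG and 5 in each of the other comparisons but the interaction, which had 0. The VPA difference of the SERPING1 to C1S ratio, 0.42, had an adjusted p of 0.0625 by exact permutation within the block. Within untreated cells alone the glucose difference was 0.79 for the C4BPA to C4BPB ratio and 0.82 for the SERPING1 to C1S ratio, and within high glucose alone the VPA difference of the former was 1.00. The SEs on the log2 scale were 0.10 to 0.19 in the comparisons between groups and 0.16 to 0.24 for the interaction. With these and 3 libraries a group, regulators that did not pass are not shown to be unaffected.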
